A study of Mus musculus with 20 samples.

Results

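The cGAS-STING pathway is the main route by which mammalian cells sense DNA in the cytosol. Here 9 of the 55406 genes counted in mouse ovarian tumours are described, chosen by symbol and not by their values: the sensor Cgas, the adaptor Sting1 (listed as Tmem173 in GENCODE M21), the kinase Tbk1, the transcription factor Irf3, the DNA sensor Ifi204, the nuclease Trex1, the nucleotidase Samhd1, the hydrolase Enpp1 and the interferon gene Ifnb1. Tumours were raised by injecting luciferase-expressing ID8 cells, which derive from the surface epithelium of the mouse ovary, into the peritoneum of C57/BL6 female mice. All 6 groups carried the same genotype, Trp53-/-Brca1-/-, so loss of the tumour suppressor Trp53 and of the homologous recombination gene Brca1 was common to treated and control tumours. The groups were PARPi+ICB+anti-VEGFA (n = 4), named the full combination from here on, PARPi+anti-VEGFA (n = 4), PARPi+ICB (n = 3), ICB (n = 3), PARPi (n = 3) and untreated control (n = 3). PARPi was olaparib, an inhibitor of the DNA repair enzyme PARP, at 40 mg/kg per day by mouth. ICB was immune checkpoint blockade with 100 µg of an antibody to CTLA-4 and 200 µg of an antibody to PD-L1, and anti-VEGFA was 20 µg of an antibody to this angiogenic factor, the antibodies being given into the peritoneum. The titles name separate mice, and the labels do not say whether the ID8 derivative was 1 clone.

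In this pathway cGAS binds double-stranded DNA and makes the cyclic dinucleotide cGAMP, which binds STING on the endoplasmic reticulum. STING then recruits TBK1, which phosphorylates IRF3, and IRF3 enters the nucleus and turns on the interferon beta gene and other targets. TREX1 degrades cytosolic DNA, SAMHD1 removes deoxynucleotides and acts at stalled replication forks, and ENPP1 hydrolyses cGAMP outside cells. Mouse IFI204 belongs to the IFI200 family of DNA-binding proteins encoded in a cluster on chromosome 1, and its closest human relative is IFI16.

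Sequencing depth was 26.9 to 34.7 M counts per library. Markers of the labelled cells (Msln, Krt7, Krt8, Krt18, Krt19 and Wt1) were present in every group, with a summed level between 1772 and 2556 CPM, that is, counts scaled by effective library size to a common total. The tumours were bulk tissue, so RNA of tumour, immune and stromal cells was read together, and fewer cells of a type cannot be told apart from less RNA per cell. In 4 libraries pancreatic acinar genes were high, namely the third with ICB, the first and the fourth with PARPi+anti-VEGFA and the second of the full combination. A list of 3 RNAs that vary with library preparation (Rn7sk, Lars2 and Mir6236) summed to 55.5 to 153 CPM in the full combination and to 46.5 to 127 CPM in the other 4 treatments, against 150.4 to 154 CPM in controls. For the members and the gene lists, counts without the 4 acinar-high libraries, or with the library RNA list as a covariate, are given where they change a call or move a count by over 1.5 times.

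Several genes of the IFI200 family other than Ifi204 were called higher in the combined treatments. Most genes of this family share an element near the start of the gene, and its part in these changes was not tested. The motif made of GAAA, any 2 bases and GAAA again, a form of the interferon-stimulated response element to which interferon regulatory factors bind, was searched on both strands of 300 bases at each start, 250 before and 50 after it. It was found in 9 of the 10 IFI200 genes with a promoter entry, which is 90%, against 1131 of 32851 promoters in the table, or 3.44%. Related lists counted below held it too. It was in 6 of 11 promoters of IRF3 and interferon targets and 12 of 22 of type I interferon and its receptor. For RNA sensors this was 3 of 8, for nucleic acid disposal 1 of 9, and for NF-kB targets 0 of 10. For cGAS and STING regulators it was 0 of 14, for cGAMP genes 0 of 8, and for kinases and transcription factors 0 of 11. Windows of 40 bases around the motif are shown because 7 of the 9 IFI200 genes with it were called higher with PARPi+anti-VEGFA, where 9.99% of all genes were. With the library RNA list as a covariate none of them was called there. The windows come from RefSeq on GRCm38.p6, read 5′ to 3′ on the strand of the gene, with the motif in capitals.
Ifi203 (chr1:173942503-173942542, minus strand): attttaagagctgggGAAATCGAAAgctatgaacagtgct
Ifi205 (chr1:174031865-174031904, minus strand): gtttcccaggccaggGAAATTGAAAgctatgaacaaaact
Ifi206 (chr1:173491334-173491373, minus strand): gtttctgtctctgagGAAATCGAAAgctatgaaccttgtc
Ifi207 (chr1:173741826-173741865, minus strand): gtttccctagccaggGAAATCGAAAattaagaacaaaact
Ifi208 (chr1:173673592-173673631, plus strand): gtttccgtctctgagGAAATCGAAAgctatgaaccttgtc
Ifi211 (chr1:173913059-173913098, minus strand): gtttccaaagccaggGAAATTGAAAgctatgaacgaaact
Ifi213 (chr1:173599321-173599360, minus strand): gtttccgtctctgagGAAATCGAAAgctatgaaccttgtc
Ifi214 (chr1:173536012-173536051, minus strand): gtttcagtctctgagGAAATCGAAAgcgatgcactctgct
Mndal (chr1:173880199-173880238, minus strand): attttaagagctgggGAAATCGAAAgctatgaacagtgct
The window of Ifi203 is the same as that of Mndal, and the window of Ifi208 the same as that of Ifi213, so these genes are close copies there. The 9 genes with the motif are therefore not 9 independent cases. Ifi209 was the 1 gene of the family in the table without the motif. It was also called higher with PARPi+anti-VEGFA, in 14 of 15 alternatives.

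Of the 7 pathway members in the promoter table, 0 held the motif, and Samhd1 was the 1 member with TTCNNNGAA, an element of the kind bound by STAT dimers, which 8.30% of all promoters held. Sting1 and Ifi204 have no entry. The 250 bases before the start of Cgas, a member called in a treatment described below, are shown for comparison and are free of both motifs.
Cgas (chr9:78443238-78443487, minus strand): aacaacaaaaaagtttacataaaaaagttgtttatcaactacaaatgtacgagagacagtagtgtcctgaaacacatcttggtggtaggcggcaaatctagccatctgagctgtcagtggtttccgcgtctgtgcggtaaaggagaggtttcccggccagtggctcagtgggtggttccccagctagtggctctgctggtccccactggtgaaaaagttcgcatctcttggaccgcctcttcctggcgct
A match to a motif is a description of the letters and not a binding site, and a stretch without one says nothing of the factor.

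All members but Trex1 and Ifnb1 were read at levels that allowed a test. Per kilobase of exon, the median over the 20 libraries was 44.3 CPM for Samhd1, 38.9 for Ifi204, 23.4 for Irf3, 20.9 for Sting1, 13.0 for Tbk1, 8.78 for Enpp1 and 2.95 for Cgas, so the sensor was the least abundant of the 7. Exon lengths here are all annotated exon bases of a gene joined together. The deposited RPKM values give another order, led by Irf3 at a median of 15.7 RPKM, with Enpp1 at 1.23 and Tbk1 at 1.28. Worked back from the counts, the length behind these values was the whole gene with its introns, within 5%, for 99.7% of 11711 genes. They are therefore used only within a gene.

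Trex1 (chromosome 9, 109057933 to 109059734, minus strand) had 0 counts in each of the 20 libraries, and the deposited RPKM lists it at 0. All 1147 of its exon bases, 100%, lie within exons of Atrip, the partner of the checkpoint kinase ATR, on the same strand. Atrip itself was read at 8.77 to 12.3 CPM. A 0 under such an overlap gives no level for Trex1, and no comparison was made.

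Ifnb1 (chromosome 4, 88522025 to 88522774, minus strand), the interferon gene at the end of the pathway, had 18 counts over all libraries. It had 0, 0, 1 and 0 counts in the full combination, 0, 7, 1 and 1 with PARPi+anti-VEGFA, 2, 2 and 1 with PARPi+ICB, 0 in each ICB library, 1, 0 and 1 with PARPi, and 0, 1 and 0 in controls. PARPi+ICB was the only group of the 6 with a count in all its libraries, and 7 of the 18 counts came from the second tumour with PARPi+anti-VEGFA. A count of 0 allows up to 3 counts, or 0.0863 to 0.113 CPM in these libraries, for counting error only, so differences of this size were not detectable at this depth.

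**Figure D1:**
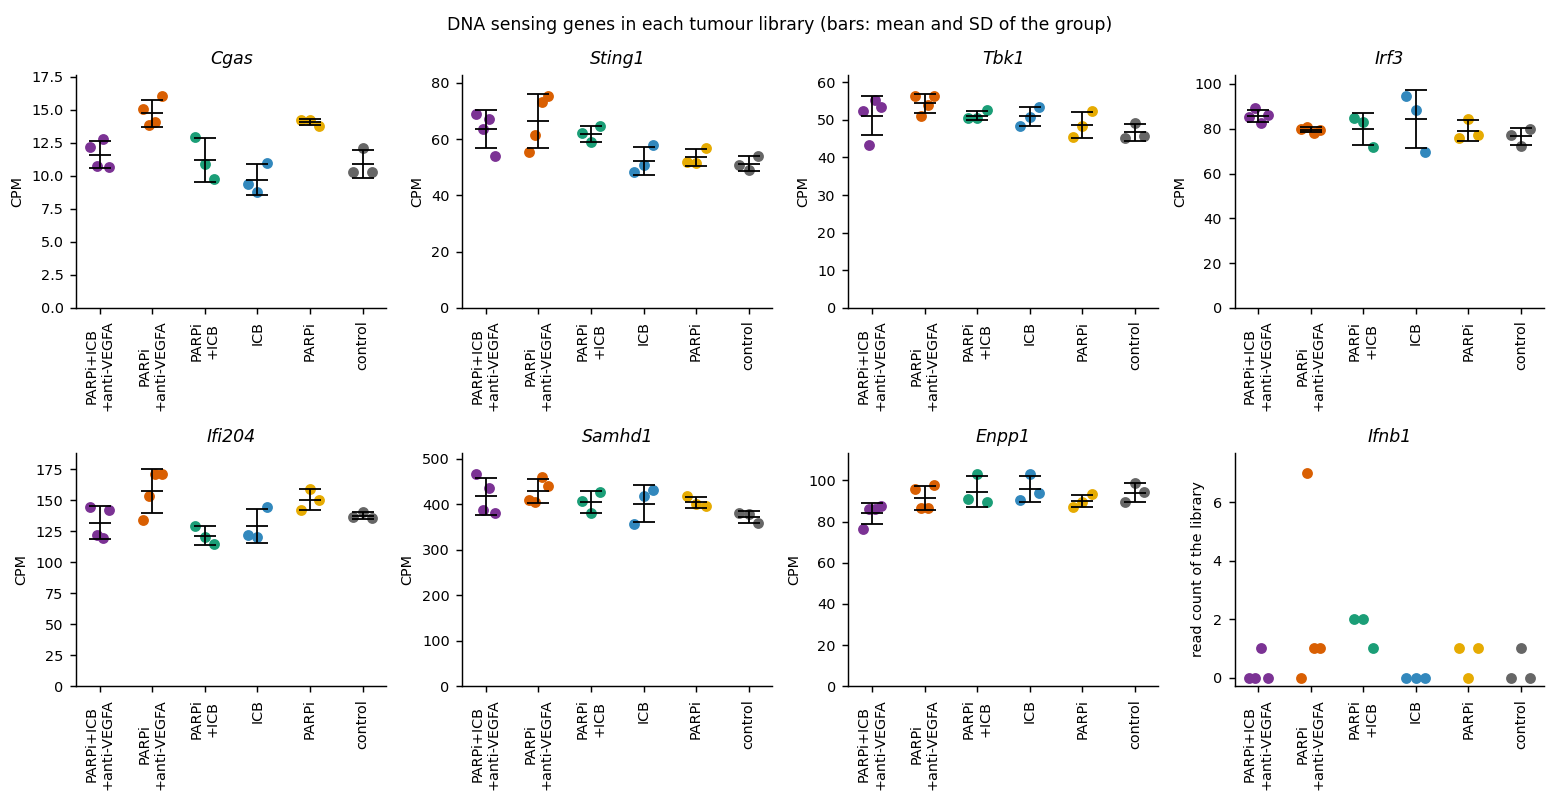
Level of 7 members in CPM and the read count of Ifnb1 (vertical axes, from 0 except for a small margin under Ifnb1) in each of 20 tumour libraries, by treatment group along the horizontal axis with controls at the right. Points are libraries and bars the group mean and SD; Cgas lies between 13.8 and 16.1 CPM in all tumours with PARPi+anti-VEGFA or PARPi and does not reach 13.8 CPM in any other group.

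Cgas (chromosome 9, 78430526 to 78443237, minus strand), the DNA sensor, differed most between treatments. It was read at 12.2, 10.8, 12.8 and 10.7 CPM in the full combination. It stood at 15.1, 13.8, 14.0 and 16.1 CPM with PARPi+anti-VEGFA, at 13.0, 10.9 and 9.76 CPM with PARPi+ICB, and at 9.40, 8.77 and 11.0 CPM with ICB. With PARPi it was read at 14.2, 14.3 and 13.8 CPM, and in controls at 10.3, 12.1 and 10.3 CPM. The 7 tumours with PARPi but without ICB thus held the highest 7 values of the series, as the plot of members by library shows. By group mean the order was PARPi+anti-VEGFA (14.7 ± 1.02 CPM), PARPi (14.1 ± 0.251), the full combination (11.6 ± 1.03), PARPi+ICB (11.2 ± 1.63), control (10.9 ± 1.05) and ICB (9.72 ± 1.14; SD, n = 3 or 4). Neighbours in this order overlapped, except PARPi, all of whose libraries lay above those of the full combination.

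Against control, Cgas rose with PARPi+anti-VEGFA by a log2 fold change of 0.43 ± 0.11 (SE; edgeR adjusted p = 0.0112). With PARPi alone the change was 0.37 ± 0.12 and missed the threshold (edgeR adjusted p = 0.210), although the libraries of the groups did not overlap. The values were 0.09 ± 0.11 in the full combination, 0.04 ± 0.12 with PARPi+ICB and −0.17 ± 0.12 with ICB, with edgeR adjusted p from 0.50 to 0.864. A gene is called here at an edgeR adjusted p under 0.05, adjusted over all 18144 genes tested.

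Sting1 (chromosome 18, 35733679 to 35740554, minus strand), the adaptor, followed another order. It was read at 69.0, 63.8, 67.1 and 53.8 CPM in the full combination and at 55.4, 61.6, 73.4 and 75.4 CPM with PARPi+anti-VEGFA. With PARPi+ICB it stood at 62.1, 58.8 and 64.7 CPM, with ICB at 48.2, 51.0 and 57.8, with PARPi at 52.0, 51.7 and 56.9, and in controls at 50.7, 48.9 and 54.1 CPM. The tumours given 1 kind of treatment and the controls overlapped, whereas all values with PARPi+ICB or PARPi+anti-VEGFA lay above the controls and 1 of 4 in the full combination, at 53.8 CPM, did not. The group means were 66.5 ± 9.54 CPM with PARPi+anti-VEGFA, 63.4 ± 6.75 in the full combination, 61.9 ± 2.94 with PARPi+ICB, 53.5 ± 2.91 with PARPi, 52.3 ± 4.93 with ICB and 51.2 ± 2.65 in controls (SD, n = 3 or 4). In this order every pair of neighbours overlapped except PARPi+ICB, which lay above PARPi in all libraries.

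Sting1 rose against control with PARPi+anti-VEGFA (log2 fold change 0.37 ± 0.10, edgeR adjusted p = 0.0167) and in the full combination (0.31 ± 0.10, edgeR adjusted p = 0.0343). With PARPi+ICB the change was 0.27 ± 0.11 (edgeR adjusted p = 0.0952). With ICB and with PARPi it was 0.03 ± 0.11 and 0.06 ± 0.11.

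Tbk1 (chromosome 10, 121546455 to 121586787, minus strand) encodes the kinase that acts on IRF3. In the fit of all libraries it was called higher only with PARPi+anti-VEGFA among the 5 treatments set against control. It had 56.4, 51.0, 53.8 and 56.4 CPM there, against 45.1, 49.3 and 45.6 CPM in controls, with no overlap (log2 fold change 0.22 ± 0.07, edgeR adjusted p = 0.0439). In the other 4 treatments its change ran from 0.06 to 0.13, and with PARPi+ICB all libraries (50.5, 50.4 and 52.6 CPM) also lay above the controls. Without the acinar-high libraries Tbk1 was called in the full combination (0.21 ± 0.06, edgeR adjusted p = 0.0247) and not with PARPi+anti-VEGFA (edgeR adjusted p = 0.0951). Leaving out only the second library of the full combination also gave a call there (0.21 ± 0.06, edgeR adjusted p = 0.0221). Comparisons of PARPi and of the full combination with PARPi+anti-VEGFA are given below. Irf3 (chromosome 7, 44997648 to 45002848, plus strand), the factor itself, was read between 69.6 and 94.7 CPM, with changes between 0.05 and 0.16 and a smallest edgeR adjusted p of 0.161 against control. Its widest group was ICB, at 94.7, 88.5 and 69.6 CPM.

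Ifi204 (chromosome 1, 173747293 to 173766943, minus strand) was read at 144, 122, 119.7 and 142 CPM in the full combination and at 134, 153, 171 and 171 CPM with PARPi+anti-VEGFA. It stood at 129, 121 and 114 CPM with PARPi+ICB, at 122, 120.5 and 145 CPM with ICB, at 142, 159 and 150.2 CPM with PARPi, and at 136, 141 and 136 CPM in controls. All values with PARPi+ICB lay below the controls and all with PARPi above them. No treatment passed the edgeR test for it against control (log2 fold change from −0.18 to 0.19, smallest adjusted p 0.148).

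The 2 members that limit the pathway and were tested moved little. Samhd1 (chromosome 2, 157097533 to 157135265, minus strand) was read at 356 to 466 CPM, with changes from 0.11 to 0.20 against control in the 5 treatments and a smallest edgeR adjusted p of 0.0760. Its libraries lay above the controls in every treatment but ICB. Enpp1 (chromosome 10, 24637914 to 24712159, minus strand) was read at 76.3, 85.9, 85.9 and 87.7 CPM in the full combination, against 89.3, 98.6 and 94.2 CPM in controls. These groups did not overlap, but the change of −0.16 ± 0.07 missed the threshold (edgeR adjusted p = 0.0874).

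**Figure D2:**
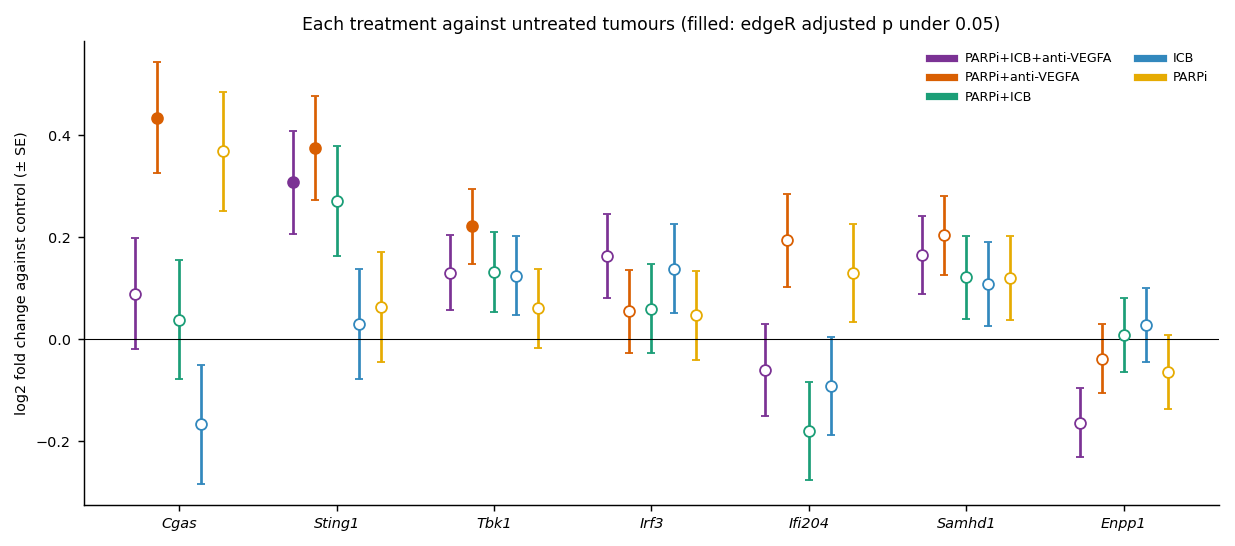
Log2 fold change against control with its SE (vertical axis) for 7 members (horizontal axis) under 5 treatments, in colour; filled points passed the edgeR test at an adjusted p under 0.05. The 4 filled points are Cgas, Sting1 and Tbk1 with PARPi+anti-VEGFA and Sting1 in the full combination.

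Counted over the members, the comparisons with control called 3 of 7 higher with PARPi+anti-VEGFA, where 9.99% of all genes were called higher, and 1 of 7 in the full combination, where 12.6% were. They called 0 of 7 with PARPi+ICB (16.1% of all genes in either direction), 0 of 7 with ICB (2.20%) and 0 of 7 with PARPi (0.0661%). Beside these counts of 0, an unadjusted p under 0.05 was reached by Sting1 with PARPi+ICB, by no member with ICB and by Cgas with PARPi, and DESeq2 called 0 in each. Libraries lay wholly above the controls for 4 of 7 members with PARPi+anti-VEGFA (14.2% of all genes), 2 in the full combination (14.9%), 3 with PARPi+ICB (17.5%), 0 with ICB (11.7%) and 3 with PARPi (11.2%). They lay wholly below the controls for 1 member, Enpp1, in the full combination (14.6% of all genes) and for 1, Ifi204, with PARPi+ICB (17.2%). These 5 comparisons share the same 3 control libraries. The 1 member called in the full combination is no more than the share of all genes would give.

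The calls of PARPi+anti-VEGFA rested on few libraries. The Cgas call was lost without the first or the third control (edgeR adjusted p = 0.0507 and 0.0553). The Sting1 call was lost without the first or the second control, or the third or the fourth treated library (0.0527 to 0.0680). Tbk1 was called in 5 of 15 alternatives. Without the libraries high in acinar RNA 1 of the 3 was called, Sting1, and with the library RNA list as a covariate 0 of the 3 were, at 0.37 ± 0.20 for Cgas (edgeR adjusted p = 0.449), 0.09 ± 0.17 for Sting1 (0.859) and 0.23 ± 0.14 for Tbk1 (0.484). Over the 15 alternatives the adjusted p ran from 0.00128 to 0.449 for Cgas, from 0.00298 to 0.859 for Sting1 and from 0.0215 to 0.484 for Tbk1. The library RNAs summed to 46.5 to 62.3 CPM with PARPi+anti-VEGFA, against 150.4 to 154 CPM in controls, and with that covariate 0 genes of the whole table were called in this comparison. In the full combination the Sting1 call was held in 8 of 15 alternatives, with an adjusted p from 0.00788 to 0.325. It was lost without any single control, without the first, the second or the third treated library, and with the covariate (0.18 ± 0.11, edgeR adjusted p = 0.325).

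Markers of immune cells, fibroblasts and adipocytes were also higher where Sting1 was called, and many of them also with PARPi+ICB, where it was not. Over all genes 9.99% were called higher with PARPi+anti-VEGFA, 12.6% in the full combination and 9.58% with PARPi+ICB. With PARPi+anti-VEGFA, 6 of 6 T cell markers, 6 of 7 macrophage markers, 4 of 6 dendritic cell markers, 4 of 6 B and plasma cell markers 3 of 5 fibroblast markers and 3 of 4 adipocyte markers were called higher, 4 of 6 ID8 epithelial markers were lower, and 0 of 4 endothelial markers were called. The T cell markers summed to 63.0 to 98.7 CPM there, against 34.2 to 42.8 CPM in controls, and the macrophage markers to 2526 to 2694 CPM, against 1553 to 1882 CPM. The dendritic cell markers summed to 103 to 127 CPM, against 94.8 to 98.7 CPM, and the ID8 epithelial markers to 1772 to 1996 CPM, against 2167 to 2556 CPM. In the full combination 6 of 6 T cell, 6 of 6 B and plasma cell, 7 of 7 macrophage and 4 of 6 dendritic cell markers were higher. So were 4 of 5 fibroblast and 3 of 4 adipocyte markers, while 4 of 6 ID8 epithelial markers were lower and 0 of 4 endothelial markers were called. With PARPi+ICB 6 of 6 T cell, 6 of 6 B and plasma cell, 6 of 7 macrophage and 3 of 5 fibroblast markers were higher. There 1 of 6 dendritic cell and 1 of 4 adipocyte markers were higher, and 4 of 6 ID8 epithelial markers were lower. No marker of these lists was at 0 in all libraries of any of these treatments or of the controls. Across the 20 libraries Sting1 had a Pearson r of 0.76 with the fibroblast score, 0.75 with the dendritic cell score, 0.73 with the T cell score, 0.72 with the macrophage score and −0.67 with the ID8 epithelial score. After the group means were taken out, these were 0.41, 0.53, 0.43, 0.29 and −0.43. With the endothelial score r was −0.51 before and −0.70 after group means were taken out. For Samhd1 the value with the dendritic cell score was 0.89 both before and after. For Cgas the same 5 scores gave 0.14, 0.46, 0.19, 0.18 and −0.45. These values describe 20 libraries that share their treatments, and the part of such cells in the changes of Sting1, Cgas and Tbk1 was not tested.

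The other 5 fixed comparisons asked what each treatment adds to another. Each called 0 of 7 members: the full combination against PARPi+anti-VEGFA (0.0882% of all genes called), the full combination against PARPi+ICB (0%), PARPi+ICB against PARPi (1.26%), PARPi+ICB against ICB (0.871%) and PARPi+anti-VEGFA against PARPi (0.573%). At an unadjusted p under 0.05 there were 2, 1, 2, 1 and 2 members in these comparisons, and DESeq2 called 1 member, Ifi204 in PARPi+ICB against PARPi. Anti-VEGFA on top of PARPi gave 0.31 ± 0.10 for Sting1 (edgeR adjusted p = 0.151) and 0.16 ± 0.07 for Tbk1 (0.300). Tbk1 was thus not shown to differ between PARPi+anti-VEGFA and PARPi. Anti-VEGFA on top of PARPi+ICB gave 0.04 ± 0.10 for Sting1, and the difference between these additions, an interaction of −0.27 ± 0.14, did not pass (edgeR adjusted p = 0.779). For Tbk1 the full combination against PARPi+anti-VEGFA gave −0.09 (edgeR adjusted p = 0.614).

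Cgas and Ifi204 were lower wherever ICB was added. For Cgas the log2 fold change with ICB was −0.35 ± 0.10 on top of PARPi+anti-VEGFA, −0.33 ± 0.12 on top of PARPi and −0.17 ± 0.12 in tumours without other treatment. For Ifi204 it was −0.25 ± 0.08, −0.31 ± 0.10 and −0.09 ± 0.10. None of these 6 values passed on its own (edgeR adjusted p from 0.116 to 0.686), and in 2 of the 3 backgrounds, PARPi+anti-VEGFA and PARPi, all Cgas libraries with ICB lay below all those without it (2.81% and 12.1% of all genes did). The 3 comparisons share no library. Their mean, a contrast added after these values had been seen, was −0.28 ± 0.06 for Cgas (edgeR adjusted p = 0.00865) and −0.22 ± 0.05 for Ifi204 (edgeR adjusted p = 0.0123).

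That contrast called 2 of 7 members lower and 0 higher, where 6.88% of all genes were called lower. Both were called in all 27 alternatives run, among them each of the 20 libraries left out in turn, with adjusted p from 0.000916 to 0.0230 for Cgas and from 0.00173 to 0.0372 for Ifi204. These include the fits without the libraries high in acinar RNA and with the library RNA covariate. All alternatives draw on the same 20 libraries, so they cannot correct for a contrast chosen after its values were seen. Sting1 (0.06 ± 0.06), Tbk1 (0.04 ± 0.04), Irf3 (0.09 ± 0.05), Samhd1 (0.02 ± 0.05) and Enpp1 (−0.01 ± 0.04) were not called, but without the third ICB library Irf3 was called higher (0.13 ± 0.04, edgeR adjusted p = 0.0301). In the same contrast 6 of 6 T cell, 4 of 7 macrophage, 4 of 6 B and plasma cell and 2 of 5 fibroblast markers were called higher. Over all 18144 genes 1318 were called higher there. Of the dendritic cell markers 0 of 6 were called, and 1 of 6 ID8 epithelial markers was lower. Of the 3 library RNAs, 0 were called. The part of these cells in the lower Cgas and Ifi204 was not tested.

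**Figure D3:**
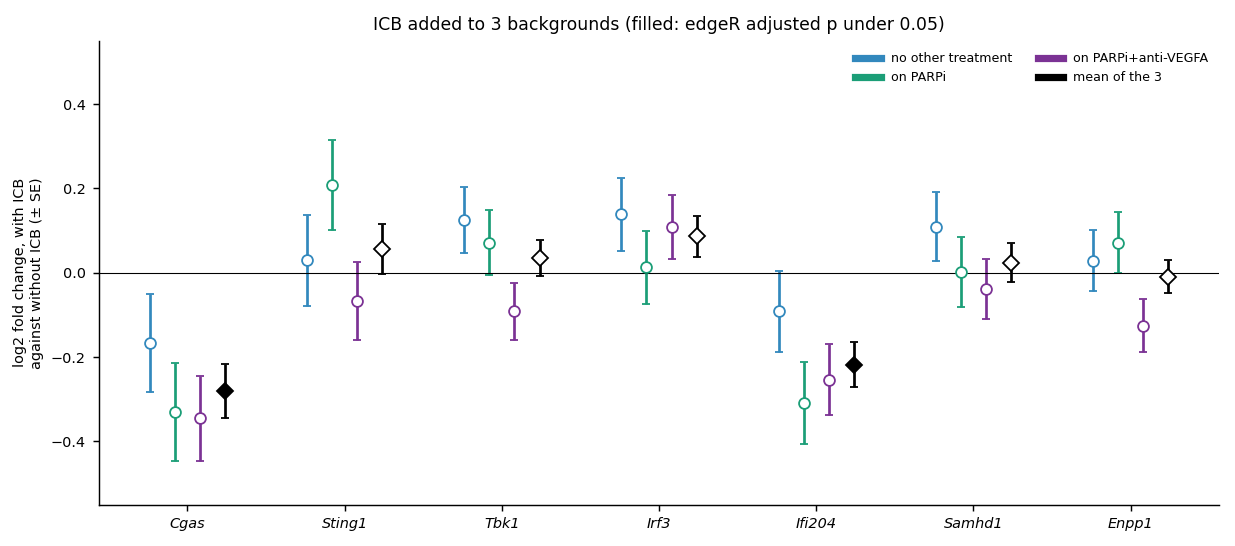
Log2 fold change with ICB against without it, with its SE (vertical axis), for 7 members (horizontal axis) in tumours without other treatment, on PARPi and on PARPi+anti-VEGFA (circles) and as the mean of the 3 (diamonds); filled points passed the edgeR test at an adjusted p under 0.05. The 2 filled diamonds are Cgas at −0.28 and Ifi204 at −0.22.

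The mean of the PARPi effects in tumours with and without ICB, also added after the values had been seen, was 0.29 ± 0.08 for Cgas and just missed the threshold (edgeR adjusted p = 0.0505), so 0 of 7 members were called where 5.10% of all genes were. DESeq2 called it, and so did 6 of the other 19 alternatives. The next value was Sting1 at 0.15 ± 0.08 (edgeR adjusted p = 0.255). The mean of the anti-VEGFA effects was 0.17 ± 0.07 for Sting1 (edgeR adjusted p = 0.311), with 0 of 7 members and 0.0331% of all genes called, Sting1 being the 1 member at an unadjusted p under 0.05, and 0 members called by DESeq2. No interaction of PARPi or anti-VEGFA with ICB was called by edgeR for a member or for any other gene, with 946 and 1188 genes at an unadjusted p under 0.05. DESeq2 called 7 and 15 genes, none of them a member.

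Around the members, 9 lists of related genes were counted. Over all genes 12.6% were called higher and 11.5% lower in the full combination, 9.99% and 7.80% with PARPi+anti-VEGFA, and 9.58% and 6.52% with PARPi+ICB. With the library RNA covariate none of the list genes was called with PARPi+anti-VEGFA, as no gene of the table was. With PARPi+anti-VEGFA, 9 of 14 tested genes of the IFI200 family and other DNA sensors were called higher and 0 lower, with a median log2 fold change of 0.59, against −0.02 over all genes. Zbp1, a sensor of left-handed nucleic acid that can start necroptosis, averaged 114 ± 30.0 CPM there, against 56.4 ± 6.68 CPM in controls (n = 4 and 3; log2 fold change 1.02 ± 0.18, edgeR adjusted p = 0.00129). Ifi205 rose by 0.95 ± 0.20, Ifi209 by 0.84 ± 0.18 and Ifi207 by 0.69 ± 0.12 (edgeR adjusted p from 0.00147 to 0.00424). Ifi203, whose window at the motif is that of Mndal, is read with its close copies in mind: how reads that match several genes were counted is not given in the sources used here.

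In the full combination 5 of 14 of these genes were called higher and 0 lower (median 0.35). They included Ifi207, at 50.5 ± 5.67 CPM against 34.5 ± 4.69 CPM in controls (log2 fold change 0.55 ± 0.12, edgeR adjusted p = 0.00402), and Ifi208, at 5.49 ± 0.821 CPM against 3.01 ± 0.881 CPM (0.87 ± 0.20, edgeR adjusted p = 0.00452). Both were called in all 15 alternatives of that comparison, the library RNA covariate among them. With PARPi+ICB 4 of 14 were called higher, Ifi207, Ifi208, Ifi209 and Zbp1, and with ICB or PARPi alone 0 of 14, although 12 of 14 were positive with PARPi (median 0.28). Aim2, the DNA sensor of the inflammasome, was not called in any of the 5 treatments (log2 fold change from −0.23 to −0.03), nor were Ddx41 and Lrrfip1. With PARPi+anti-VEGFA the count was 5 without the third or the fourth treated library or the first control, 6 without the third control, and 0 with the library RNA covariate. In the full combination it was 3 without the first control and 2 with the covariate. With PARPi+ICB it was 0 without the first control or with the covariate, and 1 without the first or the third treated library.

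**Figure D4:**
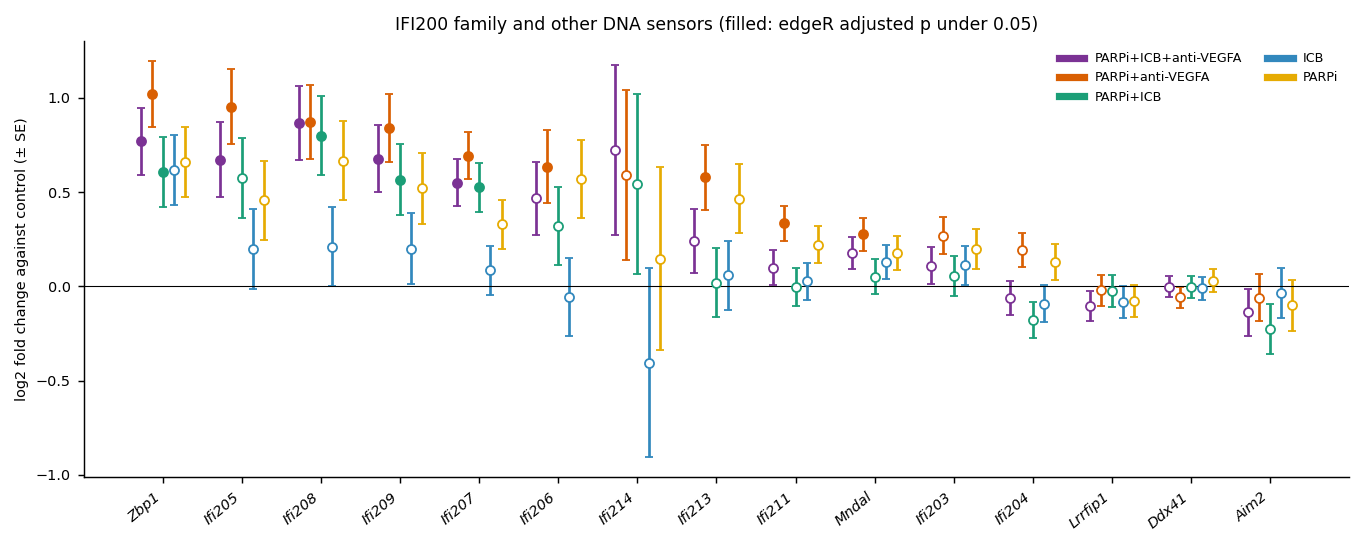
Log2 fold change against control with its SE (vertical axis) for Ifi204 and 14 other genes of the IFI200 family and DNA sensors (horizontal axis, ordered by the change with PARPi+anti-VEGFA) under 5 treatments, in colour; filled points passed the edgeR test at an adjusted p under 0.05. Zbp1, at 1.02, is the first in the order, and Aim2, Ddx41, Lrrfip1 and Ifi204 are among the genes with no filled point.

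Among the genes that act on cGAMP, Enpp3, a relative of Enpp1 that also hydrolyses cGAMP, averaged 4.45 ± 0.660 CPM in the full combination, 2.90 ± 0.833 with PARPi+anti-VEGFA and 3.56 ± 0.819 with PARPi+ICB, against 1.19 ± 0.132 CPM in controls. Its log2 fold changes were 1.90 ± 0.29, 1.28 ± 0.29 and 1.58 ± 0.30, all called by edgeR (adjusted p from 0.000272 to 0.00609). Lrrc8b, a subunit of volume-regulated anion channels, a family that carries cGAMP across the membrane, fell by 0.53, 0.31 and 0.35 on the log2 scale in the same treatments (edgeR adjusted p from 0.000149 to 0.00813). Of the 8 tested genes of this list 1 was called higher and 3 lower both in the full combination and with PARPi+anti-VEGFA, where Lrrc8d and the exporter Abcc1 were the others that fell. With PARPi+ICB 1 was higher and 1 lower, and 1 and 0 with the library RNA covariate, where Lrrc8b lost its call. Lrrc8a, Lrrc8c and Lrrc8e, other subunits of these channels, were not called in the 3 combinations, and transport of cGAMP was not measured.

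Among 18 regulators of cGAS and STING, Nlrc3, a NOD-like receptor that restrains STING, rose in all 3 combinations (log2 fold change 1.24 ± 0.18 in the full combination, 0.92 ± 0.17 with PARPi+anti-VEGFA and 1.19 ± 0.18 with PARPi+ICB). In all, 2 regulators were higher and 4 lower in the full combination (12.6% and 11.5% of all genes), 1 and 3 with PARPi+anti-VEGFA (9.99% and 7.80%), and 1 and 2 with PARPi+ICB (9.58% and 6.52%). The count of lower genes was 0 in each of the 3 without the first control. It was 1 without the first or the fourth treated library or the second control in the full combination, and without the third or the fourth treated library or the second control with PARPi+anti-VEGFA. It was 2 in the full combination without the second treated library or the third control, and without that control 1 gene was higher. With PARPi+ICB it was 0 without the first or the third treated library and 1 without the second treated library or the second control. It was 0 with PARPi+anti-VEGFA without the acinar-high libraries, and 1 in the full combination and 0 with PARPi+ICB with the covariate.

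Beside Tbk1 and Irf3, the list of kinases and transcription factors had 3 of 14 genes called higher in the full combination, 5 with PARPi+anti-VEGFA and 3 with PARPi+ICB, and 0 lower. Ikbke, the kinase closest to Tbk1, averaged 50.4 ± 5.57, 47.3 ± 3.51 and 47.1 ± 7.04 CPM in these groups, against 33.2 ± 1.19 CPM in controls, changes of 0.60, 0.51 and 0.51. Irf8, an interferon regulatory factor of myeloid and B cells, rose by 0.64, 0.73 and 0.56. Irf7, which amplifies interferon production, rose with PARPi+anti-VEGFA (0.55 ± 0.14, edgeR adjusted p = 0.0117). Of 10 tested genes that dispose of nucleic acids, 3, 4 and 3 were called higher in the 3 combinations and 0 lower. Pld3 and Pld4, exonucleases of endolysosomes, were among them in each, with changes from 0.33 to 0.50 for Pld3 and from 0.66 to 0.77 for Pld4. With the covariate the counts of these 2 lists in the full combination were 2 and 2 and with PARPi+ICB 0 and 1.

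Of 15 tested targets of IRF3 and interferon, 2 were called higher in the full combination (12.6% of all genes), 3 with PARPi+anti-VEGFA (9.99%) and 1 with PARPi+ICB (9.58%). With ICB 1 was called higher (2.20% of all genes in either direction) and with PARPi 0 (0.0661%). In each treatment 0 were lower, with medians of 0.13, 0.53, −0.06, 0.09 and 0.37 in the same order. With PARPi+anti-VEGFA the count was 9 without the first treated library and 6 without the acinar-high libraries. It was 1 in the full combination without the first or the third control or with the covariate, and with PARPi+ICB 0 with the covariate. Ifit2, an early target of IRF3, averaged 73.4 ± 13.0 CPM in the full combination, 88.1 ± 11.9 with PARPi+anti-VEGFA and 78.8 ± 15.3 with ICB, against 50.3 ± 5.98 CPM in controls, and passed the edgeR test in these 3, with ICB in 4 of 14 alternatives. Ccl5, a chemokine that T cells also make, rose by 1.69 ± 0.27, 1.39 ± 0.27 and 1.35 ± 0.28 in the full combination, with PARPi+anti-VEGFA and with PARPi+ICB. Cxcl10 rose with PARPi+anti-VEGFA (0.73 ± 0.18, edgeR adjusted p = 0.0106). Of 9 tested targets of NF-kB, the second arm downstream of STING, 3, 3 and 2 were called higher in the 3 combinations (12.6%, 9.99% and 9.58% of all genes). The count in the full combination was 2 whichever library was left out and 1 with the covariate. With PARPi+anti-VEGFA it was 1 without the third treated library or the second control, and 2 without the fourth treated library, the first or the third control. With PARPi+ICB it was 0 without the third treated library, the second or the third control, or with the covariate. Tnf rose by 0.64 ± 0.22 and 0.99 ± 0.22 in the full combination, where 5 of 15 alternatives called it, and with PARPi+anti-VEGFA, and Nfkbia, the inhibitor of NF-kB, by 0.35, 0.25 and 0.28 in all 3. Of 7 tested genes of type I interferon and its receptor, 2, 2 and 1 were higher and 1, 0 and 0 lower, and with a library left out 1 to 3, 1 to 2 and 0 to 1 were higher. Tyk2 was higher in each (0.33, 0.22 and 0.29), and the remaining 17 of the 24 genes of that list, most of them interferon genes, were too low to test.

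Of 9 genes that sense RNA, a route parallel to cGAS, 3 were called lower and 0 higher in the contrast of ICB over the 3 backgrounds. Their median was −0.11, and over all genes 6.88% were called lower in this contrast, which was added after values had been seen. Ifih1, which encodes MDA5, changed by −0.27 ± 0.05 (edgeR adjusted p = 0.00476), Ddx58, which encodes RIG-I, by −0.23 ± 0.06 (0.0106) and Eif2ak2, the kinase PKR, by −0.30 ± 0.08 (0.0149). In PARPi+ICB against PARPi alone, Ifih1 averaged 44.9 ± 2.83 CPM with ICB and 62.0 ± 2.72 CPM without it and passed on its own (edgeR adjusted p = 0.0270). That call was held in 8 of 14 alternatives. Among the interferon targets Ifi44 (−0.47 ± 0.10) and Ifit1 (−0.35 ± 0.11) were also lower, as were Irf7 (−0.26 ± 0.08) and Adar, which edits double-stranded RNA (−0.18 ± 0.04); Ifit1 was called in 11 and Irf7 in 10 of 27 alternatives. Enpp3 (0.96 ± 0.16), Nlrc3 (0.55 ± 0.10), Ccl5 (0.56 ± 0.15) and Ikbke (0.18 ± 0.05, called in 15 of 27 alternatives) were higher in the same contrast. The count of 3 lower RNA sensors was the same in each of the 20 fits that left out a library and with the library RNA covariate, and it was 4 without the libraries high in acinar RNA. The other IFI200 genes and DNA sensors had 0 of 14 called in either direction, with Ifi211 at the smallest edgeR adjusted p, 0.0896. Against control, RNA sensors were also called higher. With PARPi+anti-VEGFA, 1 to 4 of the 9 were higher and 0 to 1 lower with a library left out. Over all genes 9.99% were higher and 7.80% lower there. Tlr3 was called in 14 and Ifih1 in 8 of 15 alternatives of that comparison. In the full combination and with PARPi+ICB 0 were higher and 0 to 1 lower with a library left out. Eif2ak2 was called in 8 of 15 alternatives in the full combination.

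The genes whose pattern over the 20 libraries was most like that of Cgas were Ckap2l (Pearson r of log2 CPM 0.90), Mad2l1 (0.87), Kif20b (0.86), Rad54b (0.86) and Ms4a4c (0.86), among 13223 named genes at a mean of at least 1 CPM. Ckap2l, Mad2l1 and Kif20b act in mitosis and Rad54b in recombination, and Ms4a4c is a membrane gene of immune cells. After group means were taken out, their r was 0.60, 0.54, 0.69, 0.64 and 0.51. For Sting1 they were Il2rg (0.94), Dram1 (0.93), Fas (0.92), Csf2rb (0.91) and Slfn2 (0.91), which encode a cytokine receptor chain of lymphocytes, a p53-induced lysosomal protein, a death receptor, a receptor chain of myeloid cytokines and a schlafen protein. Within groups their r was 0.92, 0.88, 0.86, 0.79 and 0.81. Between Cgas and Sting1 themselves r was 0.41, and 0.26 within groups. Cgas with Ifi204 gave 0.70, and 0.36 within groups, and Sting1 with Samhd1 gave 0.72, and 0.67 within groups. All are descriptions over libraries that share treatments and depth.

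**Figure D5:**
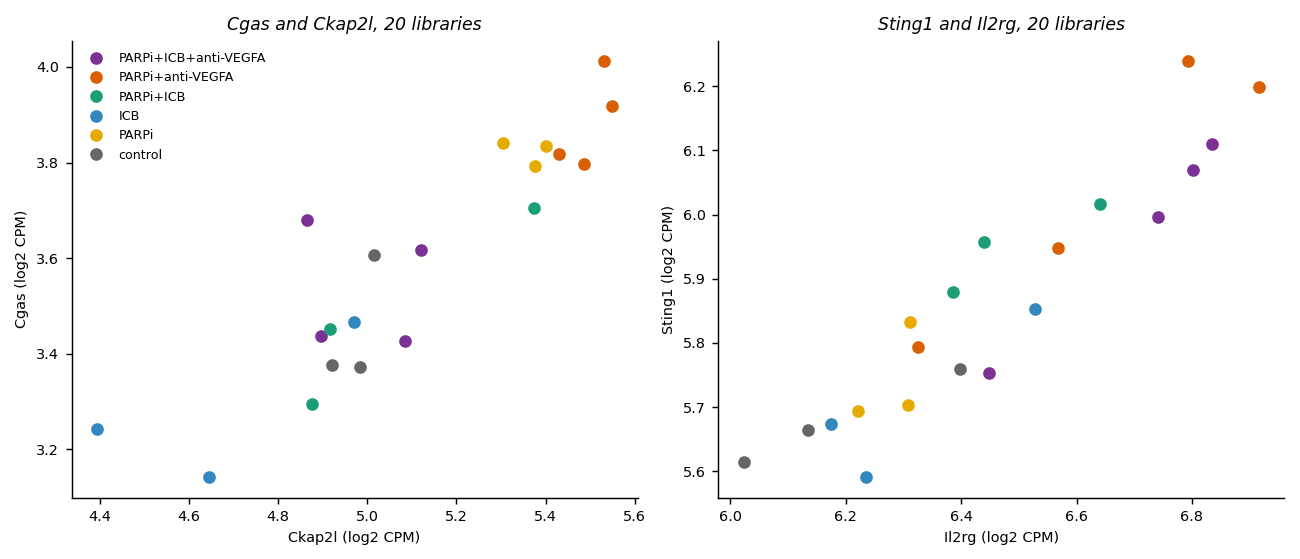
Log2 CPM of Cgas against that of Ckap2l (left) and of Sting1 against that of Il2rg (right) in 20 libraries, coloured by treatment. The points rise together, with r of 0.90 and 0.94; in the left panel the 7 tumours with PARPi+anti-VEGFA or PARPi are the highest in Cgas.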

How the data were processed

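RNA of 20 bulk ID8 tumours was sequenced and counted per gene. Per the submitters' processing notes, reads were aligned with STAR and counted with HTSeq on the mouse build GRCm38; versions, annotation, strand setting and the treatment of overlapping genes are not given in the sources used here. The authors deposited raw counts per gene and log2 values of RPKM plus 1. The log2 values served only as an alternative and within a gene. Symbols came from GENCODE M21, which held 55141 of the 55406 identifiers, and promoter sequences from RefSeq on GRCm38.p6.

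Counts were tested with edgeR 4.0.16 in R 4.3.3 by the quasi-likelihood F test, with 1 coefficient per group over all 20 libraries, TMM factors (0.958 to 1.03) and a filter for low counts (filterByExpr, minimum count 10 and total 15). This left 18144 genes, with Benjamini-Hochberg adjustment over all of them in each comparison and calls at an adjusted p under 0.05. Fold changes are log2 with SE, and CPM is given per library. Of 15 comparisons, 10 were fixed and 5 were added after values had been seen. P-values measure the spread between tumours.

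Alternatives were DESeq2 size factors, no filter, the replicate number as a block, DESeq2 1.42.0, the compared groups alone, limma 3.58.1 on the deposited log2 values, and each library left out. Leaving out libraries high in acinar RNA and a covariate of library RNAs were chosen after seeing the data. The edgeR steps were tested on simulated data. The members and lists were chosen with earlier results of these data known. Named were all members, from each list up to 4 genes with the smallest p in a comparison, and the 5 genes most like Cgas and Sting1. Genes given outside that rule, such as Aim2, were chosen after their values were seen. Intervals and floors cover counting error only.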

Additional observations from a re-analysis of the deposited data

Results flagged for a closer look

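Enpp1, the hydrolase of extracellular cGAMP, was read at 76.3 CPM in the first tumour of the full combination, which stood apart from the other 3 tumours of that group, at 85.9, 85.9 and 87.7 CPM. The gap to the nearest of them, as a share of the range of the group, was above the critical value of the Dixon test for 4 samples. Chance alone marks about 1 in 20 groups in this way.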

How the results depend on the processing

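Over the 105 results for members, 1756 of 1799 alternatives kept the direction and the side of the threshold, 26 lost a call, 17 gained one and 0 turned a called direction round. Over the 104 calls of named list genes, 1398 of 1778 alternatives kept the call and 380 lost it. The number of members called changed as follows, and the cause was not tested. With PARPi+anti-VEGFA against control it was 3, and became 0 to 3 with a library left out, 4 by DESeq2, which added Samhd1, 2 by limma or without the filter, 1 without the libraries high in acinar RNA and 0 with the library RNA covariate. In the full combination against control it was 1, and became 0 to 2 with a library left out and 0 with the covariate. It was 2 with the replicate block, where Enpp1 was also called at −0.19, and 2 without the libraries high in acinar RNA, where Tbk1 was also called. PARPi+ICB called 1 member, Sting1, against control when the compared groups were fitted alone, and 1, Ifi204, against PARPi by DESeq2 or without the libraries high in acinar RNA, against 0 otherwise. The pooled PARPi contrast called 1, Cgas, with DESeq2 size factors, with DESeq2 and without the libraries high in acinar RNA, and 0 to 1 with a library left out. The pooled ICB contrast called 2, and 3 without the third ICB library, where Irf3 was added.

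Under the replicate block PARPi+anti-VEGFA against control called 2 members, and apart from this and the full combination against control the counts were as without it. Same-numbered tumours did not deviate together (r from −0.22 to 0.17 over 46 pairs), so the numbers were not taken as pairs. Over all genes the block moved the count of calls to 20 from 12 for PARPi against control, to 266 from 158 for PARPi+ICB against ICB and to 54 from 16 for the full combination against PARPi+anti-VEGFA. Other settings moved that count by over 1.5 times as follows. For PARPi against control (12 genes) it was 70 without the filter, 338 by DESeq2, 171 with the groups alone, and 0 by limma, without the acinar-high libraries or with the covariate. For ICB against control (400) it was 1035 by DESeq2, 254 by limma and 0 with the covariate. With the covariate it was also 630 for PARPi+ICB (2922), 0 for PARPi+anti-VEGFA (3228) and 2471 for the full combination (4384) against control. For PARPi+ICB against PARPi (229) DESeq2 gave 805, the groups alone 118, limma 104 and the covariate 92. For PARPi+ICB against ICB (158) these gave 823, 0, 52 and 69 in the same order, and leaving out the acinar-high libraries 552. For PARPi+anti-VEGFA against PARPi (104) DESeq2 gave 640, limma 9 and the covariate 1. For the full combination against PARPi+ICB (0) DESeq2 gave 12 and limma 2, and against PARPi+anti-VEGFA (16) no filter gave 63, DESeq2 261, limma 10, leaving out the acinar-high libraries 3 and the covariate 0. The pooled PARPi contrast (925) had 1751 by DESeq2, 300 by limma and 467 with the covariate. The pooled anti-VEGFA contrast (6) had 29 without the filter, 315 by DESeq2, 3 with the groups alone or the covariate and 0 without the acinar-high libraries. The interactions of PARPi and of anti-VEGFA with ICB (0 each) had 7 and 15 by DESeq2, and the PARPi one 1 without the acinar-high libraries. Depth limits Ifnb1, with 18 counts in all, and the count of 0 for Trex1 limits any statement on it.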
